A study of Mus musculus with 2 samples.

Results

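General capillary endothelial cells (gCap) were examined in single-cell transcriptomes of mouse lung from 1 normoxia and 1 hypoxia library, where transcripts are counted as unique molecular identifiers (UMIs). Of 3032 cells in the 2 matrices, 2037 had between 200 and 4000 detected genes with mitochondrial UMIs of up to 5%, and 556 of these were gCap, 501 in the normoxia and 55 in the hypoxia library. A cell was taken as gCap when it carried a UMI of at least 2 of the endothelial genes *Cdh5*, *Pecam1*, *Cldn5* and *Egfl7* and of at least 2 of the gCap genes *Aplnr*, *Plvap*, *Kit* and *Lpl*. It also had to carry fewer than 2 of the aerocyte genes *Ednrb*, *Fibin*, *Chst1* and *Apln*, fewer than 2 of the arterial genes *Gja5*, *Bmx*, *Sulf1* and *Fbln2*, fewer than 2 UMIs of *Vwf* and fewer than 3 UMIs of *Ntrk2*. The cells were thus chosen by the measured UMIs of these genes, whose levels are given below as a description only.

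The lungs came from C57/B6 mice of 2 to 4 months, wild type in the text of the study, that were held in normoxia or in hypoxia for 3 weeks. In both groups the lobes were flushed, dissociated with enzymes and depleted of cells with CD45, found on leukocytes, and CD326, found on epithelial cells. The study names 3 animals for the hypoxia exposure, and how many contributed to each library is not given in the sources used here. Cells of 1 library are not replicates, so no test was made, and every interval below is an exact 95% interval that covers counting error only.

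The alveolar capillary bed is built of 2 kinds of endothelial cell. Aerocytes are large, thin cells specialised for gas exchange. gCap cells take part in vasomotor control, carry lipoprotein-handling proteins such as GPIHBP1, and serve as the progenitors that divide when the capillary bed is repaired. Lung capillary endothelium is also known for carrying MHC class II, the molecules that present peptides to CD4 T cells.

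The gCap gate held 37.2% of kept cells in the normoxia library (501 of 1348, interval 34.6 to 39.8) and 7.98% in the hypoxia library (55 of 689, interval 6.07 to 10.3). Among cells that met the endothelial condition the shares were 48.3% (501 of 1037, interval 45.2 to 51.4) and 9.21% (55 of 597, interval 7.02 to 11.8). The difference in share depended on the limits of the rule. Without the limits on *Ntrk2* and *Vwf*, 576 normoxia and 190 hypoxia cells met the other conditions, which is 55.5% (interval 52.5 to 58.6) and 31.8% (interval 28.1 to 35.7) of endothelial cells. Of those 190 hypoxia cells, 127 (66.8%) were left out by 3 or more UMIs of *Ntrk2*, the gene of the neurotrophin receptor TrkB, against 6 of the 576 normoxia cells. The limit on *Vwf* left out 29 hypoxia and 70 normoxia cells. The 127 cells had a median of 5523 UMIs, so a limit on the raw count left the shallower cells of the hypoxia library in the gate.

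**Figure D1:**
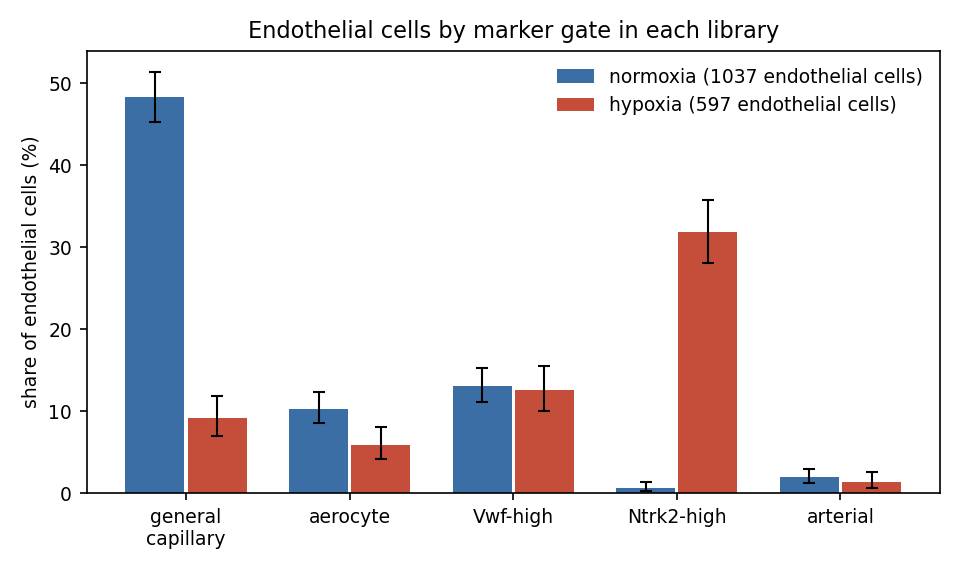
Share of endothelial cells of each library (y axis, percent) that fell in the gCap, aerocyte, Vwf-high, Ntrk2-high and arterial gates, with exact 95% intervals as error bars. The gCap bar stands at 48.3% in normoxia and 9.21% in hypoxia, and the Ntrk2-high gate holds 7 normoxia and 190 hypoxia cells.

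The 501 normoxia gCap cells held 1927698 UMIs, with a median of 3669 per cell (range 505 to 11136) over a median of 1774 genes. The 55 hypoxia gCap cells held 164525 UMIs, with a median of 2701 (range 661 to 7792) over 1423 genes. A level is given as the UMIs of a gene summed over the gCap cells of a library, per 1000000 of their UMIs (CPM). A count of 0 then allows up to 1.56 CPM in normoxia and 18.2 CPM in hypoxia, taken as 3 UMIs over the summed cells of a library. The mitochondrial share of UMIs was 2.66% and 1.68%, and that of ribosomal protein genes 7.44% and 8.26%.

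At the edge of the rule, 222 of the normoxia and 40 of the hypoxia gCap cells carried exactly 2 of the 4 gCap genes, at a median of 2989 and 2238.5 UMIs. Just outside it, 149 normoxia and 92 hypoxia cells met every other condition with 1 of these genes, at a median of 1552 and 1637 UMIs. All 4 genes were seen in 55 normoxia and 4 hypoxia cells. Cells just outside the gate were thus shallower than those just inside it in both libraries. The conditions on genes were also met by 125 normoxia and 6 hypoxia cells above 5% mitochondrial UMIs and by 12 normoxia and 0 hypoxia cells above 4000 genes, which were left out.

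The genes of the rule were not held at 1 pattern. *Plvap*, which encodes the protein of the diaphragms of endothelial caveolae and fenestrae, stood at 1385 CPM in normoxia and 298 in hypoxia. *Aplnr*, the apelin receptor, stood at 190 and 359 CPM, *Kit*, a receptor tyrosine kinase, at 744 and 699, and *Lpl*, lipoprotein lipase, at 217 and 231. The *Aplnr* ratio of 1.89 was 0.727 among gCap cells of both libraries without an *Ntrk2* UMI, a value on few hypoxia cells, so no direction is given. That reading left 455 normoxia and 16 hypoxia cells, the latter with 42177 UMIs. Most hypoxia gCap cells carried *Ntrk2* below the limit, with 0, 1 and 2 UMIs in 16, 18 and 21 of them, against 455, 34 and 12 of the normoxia cells. Of the endothelial genes of the rule, *Cdh5* stood at 2142 and 2480 CPM, *Pecam1* at 1216 and 1386 and *Egfl7* at 1717 and 2346, with ratios of 1.16, 1.14 and 1.37.

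The label was checked with *Gpihbp1*, the gene of the protein that anchors lipoprotein lipase to the capillary wall, which the rule did not use. It stood at 1341 CPM in normoxia and 1064 CPM in hypoxia gCap cells, against 88.4 and 81.6 in aerocyte-gate cells, a gCap/aerocyte ratio of 15.2 and 13.0. A *Gpihbp1* UMI was found in 88.0% (interval 84.9 to 90.7) and 74.5% (interval 61.0 to 85.3) of gCap cells, or in 67.0% and 65.3% after thinning each cell to 1000 UMIs. Outside the endothelial gate the shares were 9.65% and 23.9%, at a median of 1913 and 874 UMIs per cell, and the levels 33.3 and 163 CPM. *Gpihbp1* was not particular to the gate, since it stood at 980 and 1231 CPM in Vwf-high endothelial cells. Its hypoxia/normoxia ratio of 0.793 has an interval of 0.677 to 0.925, but it was 1.01 after thinning and 1.04 without cells holding transcripts of other cell classes, so no direction is given. Leaving out cells with transcripts of other cell classes left 182 normoxia and 11 hypoxia gCap cells, the latter with 28945 UMIs. Ratios given below for this reading thus rest on few hypoxia UMIs.

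The 8 markers listed for gCap outside the rule did not all separate the 2 kinds of capillary cell. Besides *Gpihbp1*, *Cd93*, *Sema3c* and *Adgrl3* were higher in gCap cells in both libraries, at gCap/aerocyte ratios of 30.5, 6.52 and 5.51 in normoxia and 34.5, 4.49 and 4.30 in hypoxia. *Hilpda* was at 1.78 and 1.53, *Clec1a* at 1.04 and 0.839, and *Glp1r* had too few UMIs to be read, with 0 in hypoxia aerocytes. *Cyp4b1* went against its place in the list, at 738 CPM in gCap cells against 2673 in aerocytes in normoxia and 249 against 1742 in hypoxia, ratios of 0.276 and 0.143. *Adgrl3*, *Hilpda* and *Glp1r* were named after their values were seen, to complete the list.

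Markers of other cells were low in the gCap gate. *Ptprc*, which encodes CD45, had 2 UMIs in normoxia and 0 in hypoxia gCap cells, and *Cd52* had 23 and 0. The 8 leukocyte genes summed to 48.8 and 18.2 CPM, led by *Lyz2*, with 6 of 8 at 0 in hypoxia, and the 4 platelet genes, led by *Pf4*, to 36.8 and 6.08 CPM with 3 at 0. The 8 pericyte genes summed to 175 and 48.6 CPM, led by *Cox4i2*, with *Pdgfrb* at 55 UMIs and 0 UMIs. The 7 fibroblast genes, led by *Mfap4*, summed to 185 and 12.2 CPM with 5 of 7 at 0 in hypoxia, and 87.9% of the normoxia *Dcn* UMIs lay in 1 cell. The 6 smooth muscle genes summed to 437 and 547 CPM, led by *Mcam*, which endothelial cells also make, with *Acta2* at 3 and 2 UMIs and *Myh11* at 9 and 0. The interval of the hypoxia/normoxia ratio lay below 1 for the platelet, pericyte and fibroblast sums, while that of the leukocyte sum (0.0758 to 1.13, on 3 hypoxia UMIs) and that of the smooth muscle sum (0.996 to 1.56) held 1.

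Epithelial and erythroid transcripts were present in both libraries. *Sftpc*, a surfactant gene of alveolar type 2 cells, led a list of 6 genes that summed to 169 and 328 CPM in gCap cells and to 8401 and 64957 CPM in cells outside the endothelial gate. *Scgb1a1*, a secretoglobin of airway club cells, led a list of 3 genes at 421 and 669 CPM in gCap cells and at 781 and 13776 CPM outside the gate, and 54.1% of its normoxia UMIs in gCap cells came from 1 cell. The 5 alveolar type 1 genes, led by *Hopx*, summed to 528 and 182 CPM in gCap cells. This sum was higher in aerocytes, at 1688 and 2195 CPM, than outside the endothelial gate, at 1281 and 1394 CPM. *Hopx* alone stood at 1618 and 2175 CPM in aerocytes, so this list is not particular to epithelial cells here. The 4 erythroid genes, led by *Hbb-bs*, summed to 31.1 and 109 CPM. The part of free RNA and of mixed droplets in these levels was not tested.

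Among 5950 genes with at least 50 UMIs over the gCap cells of both libraries, 256 (4.3%) were at least 2-fold higher in hypoxia and 664 (11.2%) were at 0.5-fold or less, and the median ratio was 1.00. With 3.93 UMIs expected in hypoxia for a gene at the minimum, many of these ratios rest on few molecules. Scaling by the median ratio of 1634 genes with at least 20 UMIs in each library raises the reference to 1.14 (0.19 on the log2 scale) and leaves 130 genes at 2-fold or more against 871 at 0.5-fold or less. Each list count below is to be read against the shares of 4.3% and 11.2%. Ratios below are on the CPM scale, and a ratio of 1.14 is the centre on the other. Genes of MHC class II and type IV collagen lay above both centres, and most immediate-early genes below both.

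**Figure D2:**
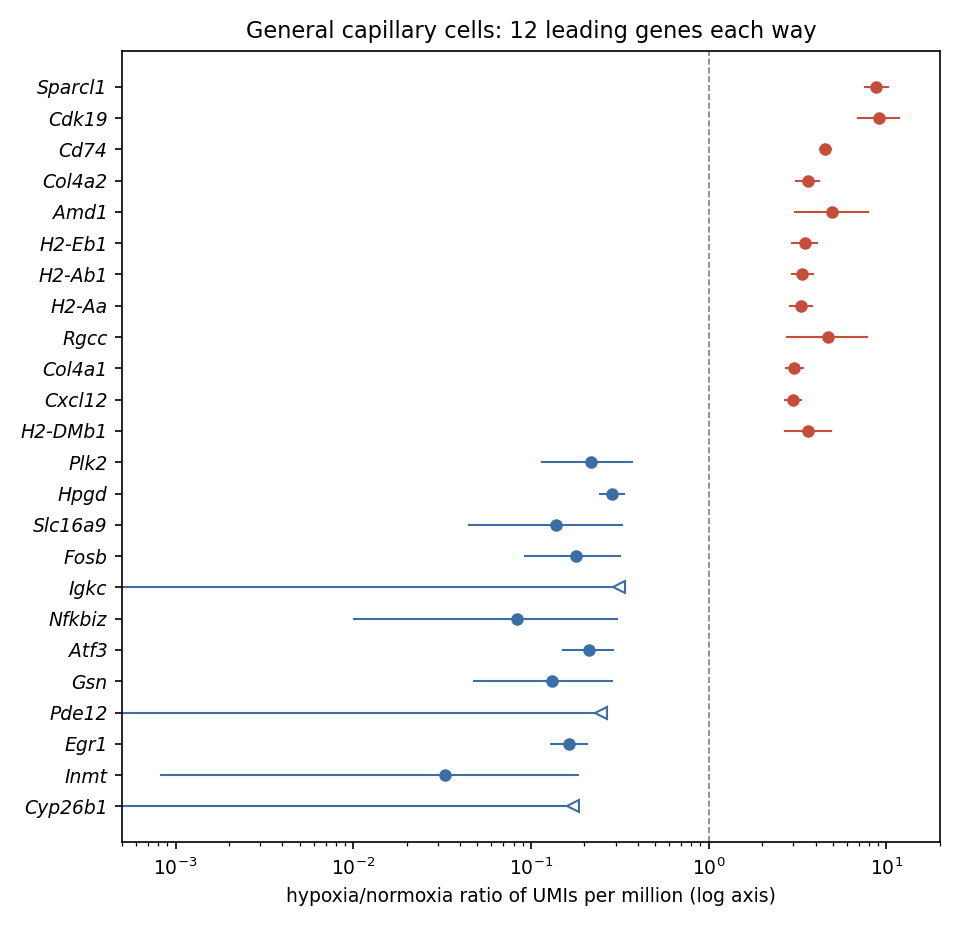
Hypoxia/normoxia ratio of CPM in gCap cells (x axis, log scale) for the 12 genes each way whose exact 95% interval ended farthest from 1, with the intervals as lines. *Cdk19* at 9.05 and *Sparcl1* at 8.80 lie farthest to the right, and open arrows mark genes with 0 hypoxia UMIs at the upper end of their interval, among them *Cyp26b1*.

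The MHC class II genes were higher in hypoxia gCap cells as a group. *Cd74*, which encodes the invariant chain that escorts class II molecules through the cell, stood at 1337 CPM in normoxia (2578 UMIs) and at 6066 CPM in hypoxia (998 UMIs), with a ratio of 4.54 (interval 4.21 to 4.88). *H2-Aa* and *H2-Ab1*, the alpha and beta chains of I-A, stood at 467 and 522 CPM in normoxia and at 1550 and 1763 in hypoxia, with ratios of 3.32 (interval 2.87 to 3.81) and 3.37 (interval 2.95 to 3.85). *H2-Eb1*, the beta chain of I-E, went from 368 to 1276 CPM, a ratio of 3.47 (interval 2.96 to 4.05). Peptide loading was on the same side, since *H2-DMb1* stood at 100.1 and 365 CPM, a ratio of 3.64 (interval 2.68 to 4.89).

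The remaining genes of the list, given to complete it and so chosen after their values were seen, are *H2-DMa* and *Ciita*. *H2-DMa*, the partner of *H2-DMb1*, stood at 102 and 328 CPM, a ratio of 3.21 (interval 2.33 to 4.36). *Ciita*, the transactivator that class II genes require, stood at 38.4 and 152 CPM (74 and 25 UMIs), a ratio of 3.96 (interval 2.41 to 6.30). All 7 genes of the list were thus at least 2-fold higher, where 4.3% of all genes were, with a median ratio of 3.47 against 1.00 over all genes. This list was known from the same data to lie on this side, so its count is no independent evidence.

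Summed over the 7 genes, class II reached 2936 CPM in normoxia against 11500 CPM in hypoxia gCap cells, giving a ratio of 3.92 (interval 3.72 to 4.13). The sum was spread over the cells and not held by a few of them. A class II UMI was found in 442 of 501 normoxia gCap cells (88.2%) and in all 55 hypoxia gCap cells, and for *Cd74* the shares after thinning to 1000 UMIs were 54.3% and 91.8%. Outside the endothelial gate, a *Cd74* UMI was found in 16.1% and 63.0% of cells. The median cell held 2166 CPM of class II in normoxia (quartiles 725 and 4356) and 11213 CPM in hypoxia (quartiles 6868 and 14957).

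The difference was not confined to gCap cells. The class II sum was 2280 and 9294 CPM in Vwf-high endothelial cells, a ratio of 4.08, and 654 and 2876 CPM outside the endothelial gate, a ratio of 4.39. In aerocytes it was 162 and 335 CPM, a ratio of 2.07, with *H2-Aa* at 20 and 4 UMIs there. The gCap cells thus carried far more class II than aerocytes in both libraries, with a gCap/aerocyte ratio for *Cd74* of 16.2 (interval 12.4 to 21.7) in normoxia against 29.1 (interval 22.0 to 39.4) in hypoxia. Leukocytes carry class II, and the leukocyte list stood at 48.8 and 18.2 CPM in gCap cells and at 1477 and 8301 CPM outside the endothelial gate, a ratio of 5.62 there. The part of leukocyte RNA and of free class II RNA in the droplets was not tested.

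Promoters of 3 class II genes are shown because genes of this list lay together in the data, and class II promoters are known for a shared upstream module that includes a CCAAT-type element, the Y box. The letters searched were ATTGG and its reverse CCAAT, on both strands, and the longer CTGATTGG with its reverse CCAATCAG, which contains the shorter motif. RefSeq promoters of GRCm38.p6, 250 bases before to 50 after a start site, were read for *H2-Aa*, *H2-Eb1*, *H2-DMa* and *H2-DMb1*, and *Cd74*, *H2-Ab1* and *Ciita* were not read here, so the counts cover part of the list. Of their 5 windows, 4 held the short motif and 2 the long one, where 37.4% and 4.1% of 32851 promoter windows do. The 250 bases before the start are printed 5′ to 3′ on the strand of the gene, with ATTGG and CCAAT in capitals.
H2-Aa, chr17:34287824-34288073, minus strand: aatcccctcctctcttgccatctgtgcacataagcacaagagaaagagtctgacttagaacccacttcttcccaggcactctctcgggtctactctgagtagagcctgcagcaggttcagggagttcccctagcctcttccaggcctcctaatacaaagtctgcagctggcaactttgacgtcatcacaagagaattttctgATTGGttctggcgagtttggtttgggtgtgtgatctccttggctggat
H2-Eb1, chr17:34305617-34305866, plus strand: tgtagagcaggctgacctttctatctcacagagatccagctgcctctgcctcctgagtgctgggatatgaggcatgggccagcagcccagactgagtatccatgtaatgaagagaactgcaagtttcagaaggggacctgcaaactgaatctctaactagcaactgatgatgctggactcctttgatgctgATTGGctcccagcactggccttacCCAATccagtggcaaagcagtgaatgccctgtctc
H2-DMb1, chr17:34152941-34153190, plus strand: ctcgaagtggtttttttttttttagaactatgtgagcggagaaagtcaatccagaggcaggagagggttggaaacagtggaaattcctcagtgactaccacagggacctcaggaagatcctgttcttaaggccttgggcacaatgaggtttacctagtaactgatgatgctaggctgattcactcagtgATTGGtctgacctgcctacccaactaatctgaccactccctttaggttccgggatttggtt

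In *H2-Aa* the long motif begins at position -51 from the start site, and in *H2-Eb1* at -62, with a CCAAT further on at -35. *H2-DMb1* holds the short motif at -61 without the longer form. *H2-DMa* has 2 windows, and in the one that holds the motif it lies at -198. A match is a description of the letters in the window, and neither binding nor use of a site was measured.

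MHC class I, which all nucleated cells carry, moved less. Of the 9 genes of its list with at least 50 UMIs, 1 was 2-fold higher and 0 were at 0.5-fold or less, with a median ratio of 1.29, and the sum of the 10 genes was 9614 and 12138 CPM, a ratio of 1.26. *H2-D1* stood at 2943 and 3683 CPM, *B2m*, the light chain, at 2688 and 3300, and *H2-K1* at 2516 and 2893. The gene past 2-fold was *Tap1*, of the peptide transporter, at 90.8 and 182 CPM (ratio 2.01, interval 1.32 to 2.97), named after its value was seen. Interferon-stimulated genes showed no common side. Of 14 measured, 1 was 2-fold higher and 1 at 0.5-fold or less, with a median of 1.01, and *Ifitm3*, with the most UMIs among them, stood at 2524 and 2462 CPM.

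A part of the basement membrane list was also on the higher side. *Col4a1* and *Col4a2* encode the chains of the common type IV collagen, the sheet-forming collagen under every endothelium. *Col4a1* stood at 828 CPM in normoxia (1596 UMIs) and at 2516 CPM in hypoxia (414 UMIs), with a ratio of 3.04 (interval 2.72 to 3.39). *Col4a2* stood at 370 CPM (714 UMIs) against 1337 CPM (220 UMIs), a ratio of 3.61 (interval 3.09 to 4.21). The *Col4a2* ratio was 7.37 among gCap cells without transcripts of other cell classes, where only 11 hypoxia cells were left. The pair lies head to head on mouse chromosome 8, with RefSeq start sites of GRCm38.p6 at 11312826 on the minus strand for *Col4a1* and 11312805 on the plus strand for *Col4a2*, 21 bases apart, so that the annotated transcripts overlap at their ends. *Sparc*, a collagen-binding matrix protein, stood at 714 and 1574 CPM, a ratio of 2.21 (interval 1.92 to 2.52) that was 1.93 under median-ratio scaling.

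The other measured basement membrane genes had intervals that held 1. *Nid1*, which links laminin to collagen IV, had a ratio of 1.09 (interval 0.653 to 1.73), *Lama5*, a laminin chain, 1.14 (interval 0.607 to 1.97), and *Lamc1*, another, 0.689 (interval 0.183 to 1.85). Of the 12 genes in the list, 7 had at least 50 UMIs, 4 of them (*Col4a1*, *Col4a2*, *Sparc* and *Sparcl1*) were 2-fold higher and 0 were at 0.5-fold or less, with a median of 2.21. The sum came to 2389 CPM in normoxia against 7598 CPM in hypoxia gCap cells, with a ratio of 3.18 (interval 2.98 to 3.39), and the median cell went from 2055 to 6814 CPM. The same sum had a ratio of 3.15 in Vwf-high cells, 3.07 in Ntrk2-high cells (interval 2.37 to 4.05), 1.28 in aerocytes (interval 1.16 to 1.42) and 0.857 outside the endothelial gate.

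**Figure D3:**
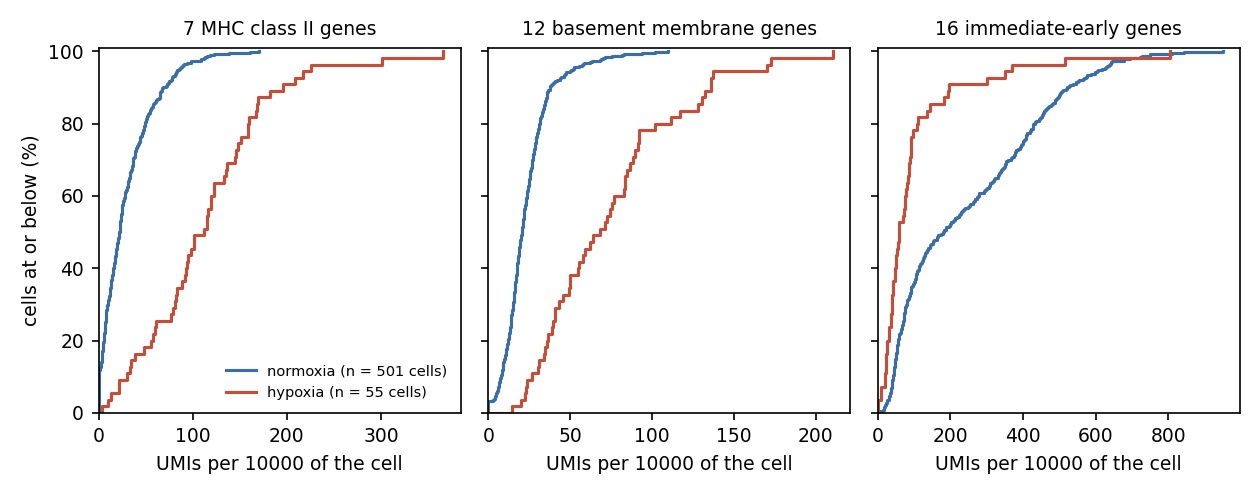
Cumulative percent of gCap cells (y axis) by the summed UMIs per 10000 (x axis) of the 7 MHC class II, 12 basement membrane and 16 immediate-early genes, 1 line per library. The hypoxia line lies to the right for class II (median cell 11213 against 2166 CPM) and for basement membrane genes (6814 against 2055 CPM), and to the left for immediate-early genes (5738 against 18242 CPM).

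*Cdk19* and *Sparcl1* led the ranking by interval end, in which genes of the rule, such as *Ntrk2* with a ratio of 12.1, and gene models were left out. *Sparcl1*, a matrix protein related to SPARC, stood at 213 CPM in normoxia (410 UMIs) and at 1872 CPM in hypoxia (308 UMIs), with a ratio of 8.80 (interval 7.57 to 10.2). *Cdk19*, a kinase of the Mediator complex, stood at 68.5 CPM (132 UMIs) and 620 CPM (102 UMIs), a ratio of 9.05 (interval 6.92 to 11.8). Over 10 alternatives the *Cdk19* ratio ranged from 5.28 to 16.8. Both genes were also higher in 2 other endothelial gates of the hypoxia library, with *Sparcl1* at 8.47-fold in Vwf-high cells and 3.88-fold in aerocytes, and *Cdk19* at 19.4-fold and 4.46-fold. Outside the endothelial gate *Sparcl1* was at 1202 and 1093 CPM and *Cdk19* at 22.2 and 289 CPM.

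*Cdk19* was known from earlier results of these data to go with *Ntrk2* in the hypoxia library, so gCap cells were also read by their *Ntrk2* count. The 16 hypoxia gCap cells without an *Ntrk2* UMI (42177 UMIs) had 9.70-fold the normoxia level of *Sparcl1* and 9.35-fold that of *Cdk19*, and the 39 cells with 1 or 2 UMIs had 8.49-fold and 8.95-fold. The cells without a UMI were shallower, with a median of 1799.5 UMIs against 3072.5 and 3116 at 1 and 2 UMIs of *Ntrk2*, so a count of 0 does not show that a cell lacked the transcript. For *Cd74* the ratios were 3.94 and 4.74, for *Col4a1* 3.06 and 3.03, for *Col4a2* 4.22 and 3.40, and for *Cxcl12* 2.32 and 3.22. *Egr1* was at 0.312 and 0.114 and *Atf3* at 0.456 and 0.129, on 36 and 38 UMIs and on 22 and 18, and since a few cells held most *Egr1* UMIs no difference between these cells is read from them. *Rgcc*, a cell cycle regulator with a ratio of 4.73 over all hypoxia gCap cells, was at 1.60 on 2 UMIs and at 5.8, with intervals that overlapped.

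*Cxcl12*, the chemokine that holds cells with the receptor CXCR4, stood at 930 CPM in normoxia (1792 UMIs) and at 2778 CPM in hypoxia (457 UMIs), with a ratio of 2.99 (interval 2.69 to 3.31). *Amd1*, of polyamine synthesis, stood at 34.2 and 170 CPM (66 and 28 UMIs), 4.97-fold (interval 3.08 to 7.84). It was at 9.62-fold among gCap cells without transcripts of other cell classes, where only 11 hypoxia cells were left. Among 6 measured angiocrine ligands and receptors, of 12 in that list, *Cxcl12* alone passed 2-fold and the median was 1.47, with *Sema3c*, a secreted guidance cue, at 1939 and 2638 CPM. Of the 6 measured leukocyte adhesion genes, 2 were 2-fold higher and 1 at 0.5-fold or less. *Cd34*, a sialomucin of capillary endothelium, stood at 94.9 and 322 CPM, a ratio of 3.39 (interval 2.45 to 4.63). *Icam1*, which binds leukocyte integrins, stood at 279 and 72.9 CPM, a ratio of 0.261 (interval 0.134 to 0.460), and lay on the other side. It was at 0.505 among gCap cells without transcripts of other cell classes.

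Immediate-early genes, which are induced within minutes of a stimulus and are known to come up during tissue dissociation, were lower in the hypoxia library. *Egr1*, a zinc finger factor, stood at 2732 CPM in normoxia (5266 UMIs) and at 450 CPM in hypoxia (74 UMIs), with a ratio of 0.165 (interval 0.129 to 0.207). *Atf3*, a stress-induced factor, had a ratio of 0.213 (2204 and 40 UMIs, interval 0.151 to 0.291), and *Fosb*, an AP-1 subunit, of 0.180 (781 and 12 UMIs). *Jun* stood at 5038 and 2723 CPM (ratio 0.541), *Junb* at 2544 and 918 (ratio 0.361) and *Fos* at 1354 and 547 (ratio 0.404). Of the 16 genes in the list, 11 were at 0.5-fold or less, where 11.2% of all genes were, and the median was 0.398. Of these, *Junb* and *Ier3* were above that fold among gCap cells without an *Ntrk2* UMI, at 0.640 and 0.692.

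This group was uneven among the hypoxia cells. Taken gene by gene, the 5 cells with the most UMIs held 96.7% of the hypoxia *Fos* UMIs, 94.6% of those of *Egr1*, 77.7% of *Ier3* and 72.8% of *Junb*, and 1 cell alone held 47.3% of *Egr1*. The sum of the list was 26719 and 12114 CPM, a ratio of 0.453, while the median cell went from 18242 to 5738 CPM. The ratio of the sum was 0.634 in aerocytes, 0.345 in Vwf-high cells and 0.233 outside the endothelial gate, so it was below 1 in every class read. Whether handling of the cells differed between the libraries was not tested. *Klf2* and *Klf4*, flow-responsive factors that sit in this list, were nearer to 1, at 0.911 (interval 0.804 to 1.03) and 0.755 (interval 0.644 to 0.880).

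Among the genes with the lowest ratios, *Hpgd*, the enzyme that inactivates prostaglandins and is a known product of lung endothelium, stood at 3499 CPM in normoxia (6745 UMIs) and at 1003 CPM in hypoxia (165 UMIs), with a ratio of 0.287 (interval 0.244 to 0.335). It was also lower in aerocytes, at 0.420-fold, and in Vwf-high cells, at 0.314-fold. *Cyp26b1*, which breaks down retinoic acid, had 253 UMIs in normoxia (131 CPM) and 0 in hypoxia, with an exact interval up to 0.172. It was at 0.43 in cells gated after thinning to 1000 UMIs. *Slc16a9*, a monocarboxylate transporter, stood at 219 and 30.4 CPM (423 and 5 UMIs), a ratio of 0.138 (interval 0.0447 to 0.326). It was at 0.325 among gCap cells without transcripts of other cell classes. *Cyp4b1*, a cytochrome P450, was at 0.338-fold (1423 and 41 UMIs, interval 0.241 to 0.460).

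Other genes on the lower side differ in how far they are gCap transcripts. *Inmt* (358 and 1 UMIs), *Gsn* (535 and 6 UMIs) and *Igkc* (139 and 0 UMIs) stood far higher outside the endothelial gate of the normoxia library, at 4029, 9005 and 15847 CPM, and *Igkc*, an antibody light chain, was at 0 in all hypoxia cells outside that gate. The *Gsn* ratio of 0.131 was 1.95 among gCap cells without transcripts of other cell classes, on no more than 6 hypoxia UMIs. *Pde12* (177 and 0 UMIs, exact interval up to 0.247), *Nfkbiz* (279 and 2 UMIs, ratio 0.0840) and *Plk2* (703 and 13 UMIs, ratio 0.217) were at 12, 308 and 55.5 CPM outside the gate in normoxia. The *Plk2* ratio was 0.388 without the limits on *Ntrk2* and *Vwf*. *Nfkbiz*, an inducible regulator of NF-kB, and *Plk2*, a stress-responsive kinase, were lower in Vwf-high cells too, at 0.203-fold and 0.391-fold.

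Oxygen-sensing genes did not share a side. *Epas1*, which encodes HIF2α, stood at 3297 CPM in normoxia (6355 UMIs) and at 1896 CPM in hypoxia (312 UMIs), with a ratio of 0.575 (interval 0.512 to 0.645), with a UMI in 99.8% and 96.4% of gCap cells and in 47.9% and 58.7% of cells outside the endothelial gate. *Hif1a* stood at 62.8 and 66.9 CPM, and its ratio of 1.07 (interval 0.518 to 1.97) shows no difference detectable at this depth. *Hif3a* and *Egln3* had no UMI in gCap cells of either library. Of the 5 measured genes of the 9 in this list, 0 passed either fold, with a median of 1.06.

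A few glycolytic genes lay on the higher side, while *Vegfa* lay on the lower. *Ldha*, lactate dehydrogenase, stood at 106 and 371 CPM, a ratio of 3.49 (interval 2.58 to 4.66) that was 1.98 among gCap cells without transcripts of other cell classes. *Aldoa*, aldolase, stood at 209 and 577 CPM, and *Gapdh* at 257 and 450, with ratios of 2.76 (interval 2.19 to 3.46) and 1.75 (interval 1.35 to 2.24). *Pkm*, pyruvate kinase, and *Ndrg1* also passed 2-fold, at 2.70 (interval 1.83 to 3.91) and 2.57 (interval 1.1 to 5.37), and were named after their values were seen. *Vegfa*, the main VEGF ligand, stood at 621 and 359 CPM, a ratio of 0.578 (interval 0.437 to 0.750). Among gCap cells without an *Ntrk2* UMI it was at 0.883. In this list of 20, 15 genes were measured, 4 were 2-fold higher and 0 at 0.5-fold or less, with a median of 1.07.

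**Figure D4:**
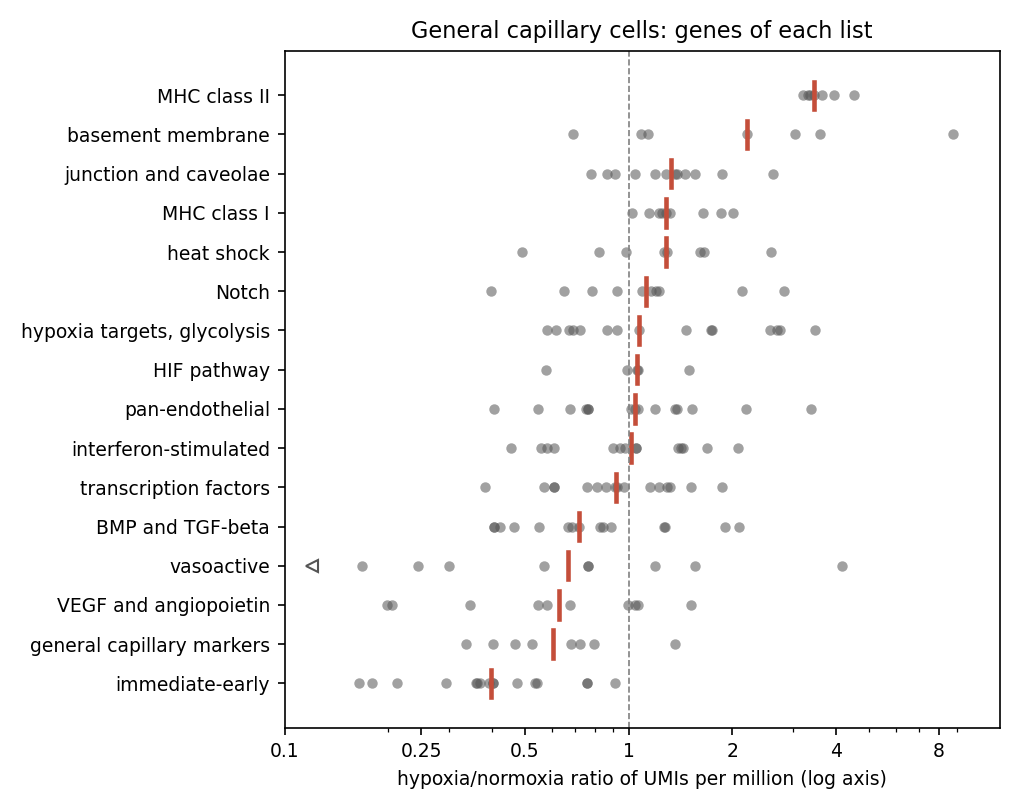
Hypoxia/normoxia ratios in gCap cells (x axis, log scale) of the genes with at least 50 UMIs in 16 lists, 1 dot per gene, with a tick at each list's median and an open arrow for a gene at 0 UMIs in hypoxia. The median is 3.47 for MHC class II, 2.21 for basement membrane and 0.398 for immediate-early genes, and the other lists lie nearer to the median of 1.00 over all genes.

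The BMP and TGF-beta families include receptors that are mutated in heritable pulmonary hypertension. *Eng*, endoglin, a co-receptor for BMP9, stood at 1350 CPM in normoxia and at 547 CPM in hypoxia, with a ratio of 0.405 (interval 0.325 to 0.50). *Bmpr2*, the type II BMP receptor, stood at 2475 and 1355 CPM, a ratio of 0.548 (interval 0.477 to 0.626). Its type I partner *Acvrl1*, ALK1, stood at 1188 and 1058 CPM (ratio 0.890, interval 0.758 to 1.04), and *Tmem100*, an ALK1-dependent membrane protein, at 2526 and 2133 (ratio 0.845, interval 0.756 to 0.942). Of 15 measured genes, 1 was 2-fold higher and 4 were at 0.5-fold or less, against 4.3% and 11.2% of all genes, with a median of 0.717. The others past a fold, named after their values were seen, were *Tgfbr2* at 2.09 and *Smad6*, *Bmp6* and *Tgfbr3* at 0.424, 0.464 and 0.406. Other BMP-induced genes of the list, also named after their values were seen, were mixed, with *Id1* at 1.91 (24.2% of its hypoxia UMIs in 1 cell), *Id3* at 1.28, *Id2* at 0.826 and *Smad7* at 0.668.

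Among 10 measured VEGF and angiopoietin genes, 0 were 2-fold higher and 3 were at 0.5-fold or less, against 4.3% and 11.2% of all genes, with a median of 0.627. Of the 3, *Angpt2* and *Esm1* had 1 hypoxia UMI each and intervals that reached above 1, and *Flt4* had 5, all named after their values were seen. *Flt1*, VEGF receptor 1, stood at 1015 and 1082 CPM, while *Kdr*, VEGF receptor 2, stood at 490 and 267, a ratio of 0.546 that was 1.13 among gCap cells without transcripts of other cell classes. Receptors for the vasodilator adrenomedullin had *Calcrl* at 3620 and 2759 CPM and its partner *Ramp2* at 2875 and 2194, with ratios of 0.762 and 0.763, of which *Calcrl* was 1.18 under the same restriction. *Ace*, the angiotensin-converting enzyme, stood at 983 and 1538 CPM, a ratio of 1.56 (interval 1.37 to 1.78), and *Ece1*, the endothelin-converting enzyme, at 737 and 419, a ratio of 0.569 (interval 0.441 to 0.725). The peptide precursor *Edn1* stood at 326 and 389 CPM (ratio 1.19, interval 0.908 to 1.55).

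Nitric oxide and prostacyclin synthesis rested on few UMIs and were read after their values were seen. *Nos3*, endothelial nitric oxide synthase, had 45 and 16 UMIs (23.3 and 97.2 CPM), a ratio of 4.17 (interval 2.2 to 7.51). *Ptgis*, prostacyclin synthase, had 57 and 0 UMIs, with an exact interval up to 0.783, and stood at 389 and 163 CPM outside the endothelial gate. Of 10 measured vasoactive genes, 1 was 2-fold higher and 4 at 0.5-fold or less, with a median of 0.666.

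Of 15 pan-endothelial genes outside the rule, 2 were 2-fold higher, *Cd34* among them, and 1, *Eng*, was at 0.5-fold or less, against 4.3% and 11.2% of all genes, with a median of 1.04. *Ptprb*, the phosphatase of the VE-cadherin complex, stood at 3357 and 2522 CPM, a ratio of 0.751 that was 1.1 among gCap cells without transcripts of other cell classes. Of 16 measured endothelial transcription factors, 0 were 2-fold higher and 1 was at 0.5-fold or less, with a median of 0.918, and *Foxf1*, a factor of lung capillary endothelium, had a ratio of 0.973. Of 12 junction and caveola genes, 1 was 2-fold higher and 0 at 0.5-fold or less, with a median of 1.33. *Cldn5*, the main claudin of endothelium and a gene of the rule, stood at 3251 and 2820 CPM, and its ratio of 0.868 was 1.01 after thinning.

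The 8 listed gCap markers outside the rule had a median ratio of 0.601, with 0 at 2-fold or more and 3 at 0.5-fold or less. The 3 were *Cyp4b1*, which stood higher in aerocytes, *Hilpda* at 0.403 and *Glp1r*, with 2 hypoxia UMIs and an interval that held 1. *Cd93*, a C-type lectin-like receptor of endothelium, stood at 2280 and 1550 CPM (ratio 0.680, interval 0.597 to 0.772). Aerocyte markers, of which 8 of 12 were measured, had a median of 0.955 with 1 at 0.5-fold or less. Of 9 measured arterial genes, 1 was 2-fold higher and 1 at 0.5-fold or less (median 1.09), and of 3 measured venous genes 0 and 1 (median 0.606). Lymphatic genes had 3 of 7 measured and all 3 at 0.5-fold or less, with a median of 0.254. *Lyve1*, a hyaluronan receptor that lymphatic and some lung capillary cells carry, stood at 503 and 128 CPM (ratio 0.254, interval 0.157 to 0.390), while the 160 normoxia UMIs of *Ccl21a*, which defines lymphatic endothelium, came to 90.6% from 1 cell.

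The remaining lists were small or mixed. Of 10 measured Notch genes, 2 were 2-fold higher and 1 at 0.5-fold or less (median 1.13), the former being the ligands *Jag2* at 2.84 and *Jag1* at 2.13, chosen after their values were seen, and the latter the target *Hes1* at 0.398. Coagulation genes had 5 measured, with 1 at 2-fold or more and 1 at 0.5-fold or less (median 1.19). The latter, *F2r*, named after its value was seen, was at 0.335 on 2 hypoxia UMIs, with an interval that held 1. *Thbd*, thrombomodulin, stood at 1416 and 1690 CPM (ratio 1.19, interval 1.05 to 1.35). *Anxa2*, a receptor for plasminogen, stood at 238 and 614 (ratio 2.58, interval 2.06 to 3.20, but 1.32 among gCap cells without transcripts of other cell classes). Of 5 measured lipid-handling genes 1 was 2-fold higher (median 0.919), and *Cd36*, a fatty acid transporter, stood at 2612 and 1878 CPM (ratio 0.719, interval 0.639 to 0.807). Heat shock genes had a median of 1.28 over 8, with 1 on each side. The cell cycle list had 1 gene of 12 at 50 UMIs, *Pcna* (ratio 1.18), and 9 of 12 at 0 UMIs in hypoxia gCap cells, where the floor of 18.2 CPM leaves low levels undetectable.

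Within each library the gCap cells were set against the aerocytes, 107 in normoxia (655816 UMIs) and 35 in hypoxia (245051 UMIs). Of 1571 genes with at least 50 UMIs over both gates in each library, 81 (5.16%) were at least 2-fold higher in gCap cells in both libraries and 130 (8.27%) were at 0.5-fold or less in both. The aerocyte cells were deeper, with a median of 6373 and 6194 UMIs. Both gates drop cells with markers of the other, so genes that go with those markers had to differ, and the values are a description.

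On the gCap side, the *Cd74*, *H2-Ab1* and *H2-Aa* ratios were 16.2, 31.1 and 15.3 in normoxia and 29.1, 54.0 and 95 in hypoxia, the last against 4 aerocyte UMIs. *Cxcl12* had ratios of 12.4 and 22.7, *Cd93* of 30.5 and 34.5, and *Ptprb* of 21.4 and 25.8. *Edn1*, the endothelin-1 precursor, had 53.4 and 31.8, and *Gja4*, a connexin of arterial endothelium, 30.1 and 30.5. These rest on 4 and 3 aerocyte UMIs for *Edn1* and on 6 and 4 for *Gja4*. *Adamts1*, a secreted protease, and *Hmcn1*, hemicentin, had 19.5 and 28.1 in normoxia and 61.8 and 29.2 in hypoxia, where *Adamts1* had 2 aerocyte UMIs (interval 16.6 to 519). Class I and matrix genes were mixed, with *H2-D1* at 0.941 and 0.879 and *H2-K1* at 1.42 and 1.28, and with *Nid1* at 0.373 and 0.827, *Sparc* at 4.68 and 5.28 and *Lama5* at 8.16 and 4.17. *Col4a1* was near the aerocyte level in normoxia, at 1.14, and above it in hypoxia, at 2.52.

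On the aerocyte side, *Car4*, the membrane carbonic anhydrase of aerocytes, stood at 134 CPM in gCap cells against 2839 in aerocytes in normoxia, and at 164 against 3501 in hypoxia, ratios of 0.0473 and 0.0469. *Tbx2*, a T-box factor, had 0.0330 and 0.0150, *Emp2*, a tetraspan protein, 0.0384 and 0.0529, and *Igfbp7*, an IGF-binding protein, 0.0226 and 0.0541. *Clu*, clusterin, had 0.125 and 0.0776, and *Ptp4a3*, a phosphatase, 0.0730 and 0.0737. *AW112010* and *Ccdc184* had 0.0222 and 0.0184 in normoxia and 0.0368 and 0.0368 in hypoxia, and *Itgb5*, an integrin chain, 0.0458 in normoxia with no gCap UMI in hypoxia. The distance between the 2 kinds of capillary cell in these genes was thus of like size in both libraries for *Car4* and *Ptp4a3*, with the other ratios varying around it.

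**Figure D5:**
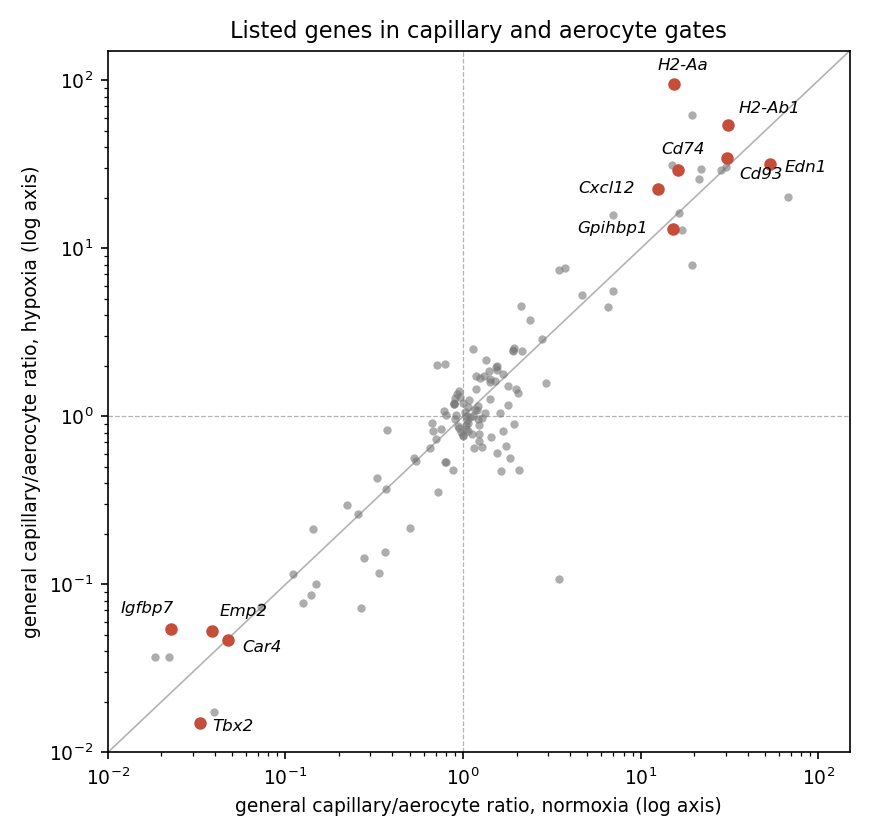
gCap/aerocyte ratio of CPM in normoxia (x axis, log scale) and in hypoxia (y axis, log scale), 1 point per listed gene with at least 50 UMIs over both gates in each library, genes of the rule and genes at 0 in a gate left out. *Cd74* lies above the diagonal at 16.2 and 29.1, *Gpihbp1* near it at 15.2 and 13.0, and *Car4* far to the lower left at 0.0473 and 0.0469.

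Spread among gCap cells was read as the variance of a gene's UMIs over that of counting alone. Over 5666 normoxia genes its median was 1.19 and over 552 hypoxia genes 1.78. In normoxia the largest values belonged to *Scgb1a1* at 229, *Ccl21a* at 132, *Mgp* at 96.5, *Malat1* at 75, *Dcn* at 50.8 and *Igkc* at 44.9, followed by *Hmgb2* (36.1), *Gsn* (35.8), *Inmt* (29.6) and *Ighm* (27.9). Most of these are transcripts of airway, lymphatic, fibroblast or plasma cells, and 56.8% of the *Igkc* UMIs lay in 1 cell. In hypoxia *Malat1* led at 153, followed by the immediate-early genes *Fos* (32.4), *Jun* (24.4), *Egr1* (23.4), *Ier3* (22.4) and *Junb* (17.1), then *Gm42418* (15.1), *Igfbp7* (13.4), *Hspa1a* (12.5) and *Socs3* (10.9). Of the 51 *Igfbp7* UMIs, 49.0% came from 1 cell.

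*Malat1*, a nuclear long non-coding RNA, had the most UMIs of all genes in both libraries, at 45796 and 39714 CPM. It had no UMI in 30 of 501 normoxia gCap cells (5.99%, interval 4.08 to 8.44) and in 9 of 55 hypoxia gCap cells (16.4%, interval 7.77 to 28.8). These cells were shallow, with a median of 1189.5 and 1344 UMIs. Among other endothelial cells the share without it was 22.9% and 21.0%, and outside the endothelial gate 39.9% and 48.9%.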

How the data were processed

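Reads were aligned to mm10 by the authors with Cell Ranger, version 6.1.2 per the file headers, while the paper's text names others. The deposited values are raw UMI counts of 31053 genes per cell. Where 36 rows shared a symbol, the row with the most UMIs was used, and multigene families such as *Ccl21a* and class I genes may share reads. Of the 2 upper gene limits that the paper gives, 4000 was used, as the only step against doublets, and 6000 was tried as an alternative. Members and gene lists were chosen with earlier results of these data known. No barcode was shared between members of the 2 libraries.

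UMIs were summed per library. Ratios carry conditional binomial and shares Clopper-Pearson intervals (95%). The ratio intervals were checked on simulated counts that vary by counting alone, so the check does not cover spread among cells. Genes named are those of the rule and markers, the 12 each way with the interval end farthest from 1, the 10 each way against aerocytes, the 10 of largest spread, and up to 4 per list with the most UMIs, of which 1 is not reported here. Genes of the rule, haemoglobin genes and gene models were left out of the ranking. Cells under 1000 UMIs (22 normoxia and 6 hypoxia) were left out when thinning. Promoters are from RefSeq. Python 3.11.15, numpy 2.4.6, scipy 1.17.1, pandas 2.3.3 and matplotlib 3.10.9 were used.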

Additional observations from a re-analysis of the deposited data

Results flagged for a closer look

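Of the 124 named ratios, genes of the gates left out, 5 had intervals on opposite sides of 1 in gCap cells and aerocytes. *Cldn5*, a gene of the rule, did so too, at 0.868 and 1.19. The difference between the 2 cell types was not tested, since each condition has 1 library. *Ramp2*, the adrenomedullin receptor partner, was at 0.763 (interval 0.684 to 0.849) in gCap cells and 1.15 (interval 1.07 to 1.24) in aerocytes. *Hopx*, a homeodomain factor used here as an alveolar type 1 marker, was at 0.369 and 1.34, *Cav1*, caveolin-1, at 1.19 and 0.740, and *Thbd*, thrombomodulin, at 1.19 and 0.830. The gCap intervals of *Cav1* (1.07 to 1.34) and *Thbd* (1.05 to 1.35) held 1.14, the centre under median-ratio scaling. Among gCap cells without an *Ntrk2* UMI, *Cav1* was at 0.965 and *Thbd* at 1.02. *Ccl21a*, a lymphatic chemokine, was at 0.220 (interval 0.0448 to 0.654, 160 and 3 UMIs) in gCap cells against 0 and 4 UMIs in aerocytes, and 90.6% of its normoxia gCap UMIs came from 1 cell. Without the highest cell of each library the ratio was 1.58, with an interval that held 1.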

How the results depend on the processing

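No paired analysis was possible because there was 1 library per condition. Of 124 named ratios, 0 with an interval on 1 side of 1 changed side with up to 10% mitochondrial UMIs or under median-ratio scaling. Ratios that moved without being counted as a change of side were 26 under median-ratio scaling and 33 with the rule after thinning. They were 47 without an *Ntrk2* UMI and 53 without transcripts of other classes. Of 40 gCap/aerocyte ratios checked, 14 moved with the rule after thinning to 1000 UMIs and 1 with up to 10% mitochondrial UMIs. All 40 stayed the same under median-ratio scaling. The alternative without an *Ntrk2* UMI was chosen after seeing the data. Asking for 3 of the 4 gCap genes left 279 normoxia (26.9% of endothelial cells) and 15 hypoxia cells (2.51%), dropping the *Ntrk2* and *Vwf* limits gave 55.5% and 190 cells (31.8%), thinning to 1000 UMIs gave 286 normoxia (33.5%) and 41 hypoxia cells (8.61%), and 10% mitochondrial UMIs gave 40.8% and 8.90%. Genes at 2-fold or more, 256 as reported, were 519 without an *Ntrk2* UMI, 130 under median-ratio scaling, 599 at a minimum of 20 UMIs and 111 at 100. Genes at 0.5-fold or less, 664 as reported, were 305 after thinning, 310 without the limits, 1164 without an *Ntrk2* UMI, 1385 at 20 UMIs and 282 at 100, where a lower minimum admits genes of fewer UMIs. Ratios changed side for *Sftpc* with up to 6000 genes (0.124), and after thinning for *Cldn5* (1.01), *Gpihbp1* (1.01), *Mfap4* (3.03), *Dcn* (6.05), *Scgb1a1* (0.590) and *Iigp1* (1.02). *Scgb1a1* was at 0.978 without the limits. Among the 182 normoxia and 11 hypoxia gCap cells without transcripts of 6 other classes, they did so for *Gsn* (1.95), *Calcrl* (1.18), *Ptprb* (1.1), *Gpihbp1* (1.04), *Clec1a* (1.11) and *Kdr* (1.13). With 2000 to 6000 UMIs per cell *Mgp* was at 2.17 and *Ccl21a* at 2.76. Without an *Ntrk2* UMI *Aplnr* was at 0.727, *Efnb2* at 1.38, *Mgp* at 1.09 and *Cav1* at 0.965. As a mean over cells *Gucy1a1* was at 1.05, and without the highest cell *Ccl21a* was at 1.58. Past a fold as reported, *Junb* was at 0.640 and *Ier3* at 0.692 without an *Ntrk2* UMI, *Hes1* at 0.656 and *Icam1* at 0.505 without transcripts of other classes, and *Flt4* at 0.559 without the limits. The cause was not tested. Over 10 alternatives *Cd74* ranged from 3.58 to 5.24, *Col4a1* from 2.66 to 4.11, *Sparcl1* from 6.78 to 16.9, *Hpgd* from 0.226 to 0.329, *Epas1* from 0.503 to 0.712, *Ldha* from 1.98 to 4.52 and *Egr1* from 0.0136 to 0.314. With 164525 hypoxia UMIs, a gene at 50 UMIs over both libraries is expected at 3.93, which limits every ratio of a low gene.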

Other observations

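The gCap cells of both libraries held no UMI of *Xist*, which is transcribed from the inactive X chromosome, or of its antisense gene *Tsix*, and held the Y-linked *Ddx3y* (247 and 10 UMIs) and *Eif2s3y* (86 and 7 UMIs). *Mal*, a membrane raft protein known from earlier results of these data to go with *Ntrk2* in the hypoxia library, had 0 UMIs in normoxia and 15 in hypoxia gCap cells, found in 14.5% of the 55 cells. *Cd34*, on the higher side in hypoxia gCap cells, was a transcript with the higher CPM in aerocytes, with gCap/aerocyte ratios of 0.143 in normoxia and 0.214 in hypoxia.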
